A study of Trichoderma guizhouense with 100 samples.

Results

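The GH11 endoxylanases of Trichoderma guizhouense NJAU4742 are 4 of the 11244 genes in the deposited expression table, namely OPB43840 (annotated xyn2), OPB46304 and OPB46017 (both annotated xyn1) and OPB41202 (annotated only as GH11). They were chosen by their annotation and followed over all 100 RNA-seq libraries and 34 groups of the study, and all 4 were among the 10026 genes tested. The wild type (WT) and the mutants ∆Tgxyr1, ∆Tgace1 and ∆Tgace2, each lacking the gene of 1 transcription factor, were pre-grown on glucose (the 0 h samples), washed, and moved to xylan from sugarcane bagasse or to Avicel, a microcrystalline cellulose, for 4, 24 and 72 h. WT and ∆Tgxyr1 were, for the same times, also starved of carbon (CS) in medium that held no carbon source, whereas ∆Tgace1 and ∆Tgace2 were not. Each group held 3 libraries except WT under CS at 4 and 72 h, which held 2. In each mutant the target gene had been replaced by a hygromycin resistance cassette that WT does not carry, and the number of independent clones behind each mutant was not stated.

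Xylan, the main hemicellulose of grasses, is a chain of xylose units carrying arabinose, glucuronic acid and acetyl side groups. GH11 endoxylanases are small secreted enzymes that cut the chain internally, after which β-xylosidases and enzymes that remove the side groups complete its breakdown to sugars that the cell takes up and uses. In Trichoderma reesei (Hypocrea jecorina), the species named in the xyn1 and xyn2 annotations, xyn1 and xyn2 encode the main secreted xylanases, Xyr1 is the activator on which xylanase and cellulase genes depend, and ACE1 was described as a repressor of these genes.

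Expression was given as RPKM, reads scaled by gene length and by mapped reads, so levels can be set side by side between genes. The read depth of the libraries is unknown, and RPKM summed over all genes ranged from 553844 to 3295522 in a library (median 1504076). In bulk mycelium, fewer expressing cells and less RNA per cell cannot be told apart. TgXyr1 (OPB38038) was listed at 0 to 0.168 RPKM in the 30 ∆Tgxyr1 libraries against 1.29 to 143 in the 28 WT libraries. TgACE1 was not analysed here, so the ∆Tgace1 labels were not checked in this way. Over all genes, 9 of the 100 libraries were closer to a library of another group than to any of their own. The library that stood furthest apart was WT on Avicel at 72 h, replicate 2, with a mean correlation of 0.784 to its own group and of 0.972 to its closest library, replicate 2 of WT under CS at 72 h. Replicate 3 of WT on Avicel at 24 h was far above the other 2 in its xylanase values. Over all genes it was like its group, with a mean correlation of 0.979 to it and its closest library within it. Because it was picked by its high values, leaving it out lowers the WT member levels at 24 h and widens any mutant excess. Member values without 1 or both of these 2 libraries are given where they changed a call, a direction or the size by over 1.5 times. Leaving them out was chosen after the values were seen.

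Differences are on the log2(RPKM + 1) scale, which understates the change of genes with low values, and are given with a standard error (SE) from a linear model over all libraries (limma, Benjamini-Hochberg adjusted p over the 10026 genes). A difference was called when its adjusted p was at most 0.01, its size at least 2 and the mean of the higher group over 2 RPKM. The study's methods call the replicates biological without saying whether each was a culture of its own. The p-values use 1 spread per gene, pooled within all 34 groups, and not that of the compared groups alone. They can therefore be too small where the compared groups scatter widely and too large where they are even.

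OPB43840 (xyn2) was by far the most abundant member. It was the highest of the 4 in 93 of the 100 libraries, was over 1 RPKM in all 100 and over 100 RPKM in 52. OPB46304, OPB46017 and OPB41202 were listed at 0 in 56, 48 and 28 libraries and were over 1 RPKM in 33, 31 and 38. The remaining 7 libraries, all from Avicel at 72 h, had OPB41202 on top. For each of the 4 genes the highest library was the same, ∆Tgace1 on xylan at 24 h, replicate 3, with 34526 RPKM of xyn2, 1976 of OPB46304, 1988 of OPB46017 and 3602 of OPB41202. When the 34 groups were ordered by their mean, neighbouring groups overlapped in 30 to 32 of 33 cases for each gene, so the order is resolved only between widely separated groups. For xyn2 the first 5 groups were ∆Tgace1 on Avicel and on xylan at 24 h, ∆Tgace2 on Avicel at 24 h, ∆Tgace2 on xylan at 72 h and ∆Tgace1 on xylan at 72 h. They overlapped in sequence and lay above the next group, WT on xylan at 72 h, without overlap. They were not clear of all WT groups. The highest library of WT on Avicel at 24 h (6667 RPKM) was above the lowest of ∆Tgace1 on xylan at 72 h (5491 RPKM). For OPB46304 and OPB46017, ∆Tgace1 on xylan at 24 h stood above every other group without overlap.

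In WT, xyn2 rose on xylan at every time. It stood at 6.62, 8.20 and 4.27 RPKM in the 3 glucose libraries (6.37 ± 1.98, SD, n = 3), at 357, 514 and 295 RPKM after 4 h on xylan, at 889, 1127 and 1215 RPKM after 24 h and 3506, 2181 and 3047 RPKM after 72 h (2911 ± 673). No library of one of these times overlapped with another time. The means were 61.1, 169 and 457 times that on glucose, and the log2 differences were 5.72, 7.22 and 8.64 (SE 1.02; adjusted p = 2.2e-06, 1.7e-08 and 2.8e-11, limma). The shares of all genes called higher than at 0 h on xylan were 6.33%, 4.58% and 8.94% at 4, 24 and 72 h. Successive times on xylan did not differ by the call for xyn2.

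On Avicel, xyn2 in WT was even after 4 h, with 227, 262 and 237 RPKM (242 ± 18.2), and then scattered widely, with 30.3, 284 and 6667 RPKM at 24 h and 134, 8.23 and 201 RPKM at 72 h. Every one of these libraries was above all 3 glucose libraries, although replicate 2 at 72 h was only just above the highest of them. The log2 differences from glucose were 5.08 and 5.77 at 4 and 24 h (SE 1.02; adjusted p = 3.4e-05 and 1.7e-06), where 4.19% and 6.88% of all genes were called higher, and 3.14 at 72 h (adjusted p = 0.012, not called), where 2.85% were. Leaving out both WT Avicel libraries that stood apart moved the 24 h difference to 3.72 (adjusted p = 0.00055) and the 72 h difference to 4.53 (adjusted p = 0.00012, called). Fitted on the 2 compared groups alone, the 24 h difference was not called (adjusted p = 0.0189).

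The members annotated xyn1 were low in WT and differed between the carbon sources. OPB46304 was listed at 0, 0.247 and 0 RPKM on glucose, and on xylan at 1.72, 1.72 and 2.22 RPKM at 4 h, 8.07, 4.29 and 10.2 RPKM at 24 h and 31.0, 13.8 and 27.8 RPKM at 72 h, again with no overlap between times. Its log2 differences from glucose were 2.92 at 24 h (SE 0.62; adjusted p = 6.7e-05) and 4.47 at 72 h (adjusted p = 3.2e-09). OPB46017, at 0 in all glucose libraries, peaked earlier on xylan, with 0.838, 0.627 and 0.240 RPKM at 4 h, 8.75, 6.43 and 18.8 RPKM at 24 h and 3.81, 1.12 and 2.78 RPKM at 72 h. It was called higher than at 0 h only at 24 h (log2 difference 3.50, SE 0.69; adjusted p = 2.4e-05), and the rise from 4 to 24 h was also called (2.86, adjusted p = 0.00048), as it was for 3.27% of all genes. In all, 6 of the 12 member differences on xylan were called higher than at 0 h. Because both genes carry the same annotation, reads from 1 could have been counted for the other, and the split between them is uncertain. Of the 37 libraries in which either was over 1 RPKM, OPB46304 was the higher in 25 and OPB46017 in 12.

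On Avicel both xyn1 members appeared late in WT. OPB46304 was listed at 0 in all 3 libraries at 4 h, 0, 0 and 1.97 RPKM at 24 h and 30.3, 0 and 7.80 RPKM at 72 h. OPB46017 stood at 0.430, 0.386 and 1.51 RPKM at 24 h and 132, 1.45 and 49.6 RPKM at 72 h. In both genes replicate 2 at 72 h, the library that stood apart over all genes, was far below the other 2. Compared with glucose at 72 h, the log2 difference was 2.60 for OPB46304 (SE 0.62; adjusted p = 0.00059) and 4.67 for OPB46017 (SE 0.69; adjusted p = 1.4e-07). The rise from 24 to 72 h was called for OPB46304 (2.18, adjusted p = 0.0041) and OPB46017 (3.90, adjusted p = 1e-05), as it was for 2.28% of all genes. For OPB46304 the call against glucose was lost without replicate 1 at 72 h (1.46, adjusted p = 0.0602). The rise from 24 h was lost without any 1 of replicates 1 and 2 at 24 h and 1 and 3 at 72 h (1.05 to 1.96, adjusted p = 0.0308 to 0.226). Without replicate 2 at 72 h the difference from glucose was 3.95 and the rise from 24 h was 3.53. Without both libraries that stood apart the rises from 24 h were 4.05 for OPB46304 and 5.87 for OPB46017. None of these 4 calls held in a fit on the compared groups alone (adjusted p = 0.158 to 0.434).

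OPB41202 was nearly silent on xylan in WT and reached its WT maximum on Avicel. It was listed at 0, 0.166 and 0 RPKM on glucose, and on xylan at 0, 0 and 0.503 RPKM at 4 h, 2.74, 0.899 and 4.25 RPKM at 24 h and 1.33, 0.261 and 1.93 RPKM at 72 h, with no xylan difference called. On Avicel it was listed at 0 in all 3 libraries at 4 h, 0.592, 4.17 and 180.3 RPKM at 24 h and 1371, 0 and 342 RPKM at 72 h. Replicate 2 at 72 h lay within the range of the glucose libraries and the other 2 were the highest WT values of this gene. The log2 difference from glucose was 3.44 at 24 h (SE 1.10; adjusted p = 0.0056) and 6.21 at 72 h (adjusted p = 6e-06), so that 6 of the 12 member differences on Avicel were called. The 24 h call was lost without replicate 3 at 24 h (1.45, adjusted p = 0.277) or any 1 glucose library (adjusted p = 0.0132 to 0.0164). The rise from 4 to 24 h (3.51, adjusted p = 0.0079), a call made for 1.89% of all genes, was lost without replicate 3 at 24 h (1.52, adjusted p = 0.311) or any 1 library at 4 h (adjusted p = 0.0219 to 0.0223). At 72 h the difference was 4.14 without replicate 1 (adjusted p = 0.00219) and 9.35 without replicate 2. The 3 calls did not hold in a fit on the compared groups alone (adjusted p = 0.0769 to 0.259).

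**Figure D1:**
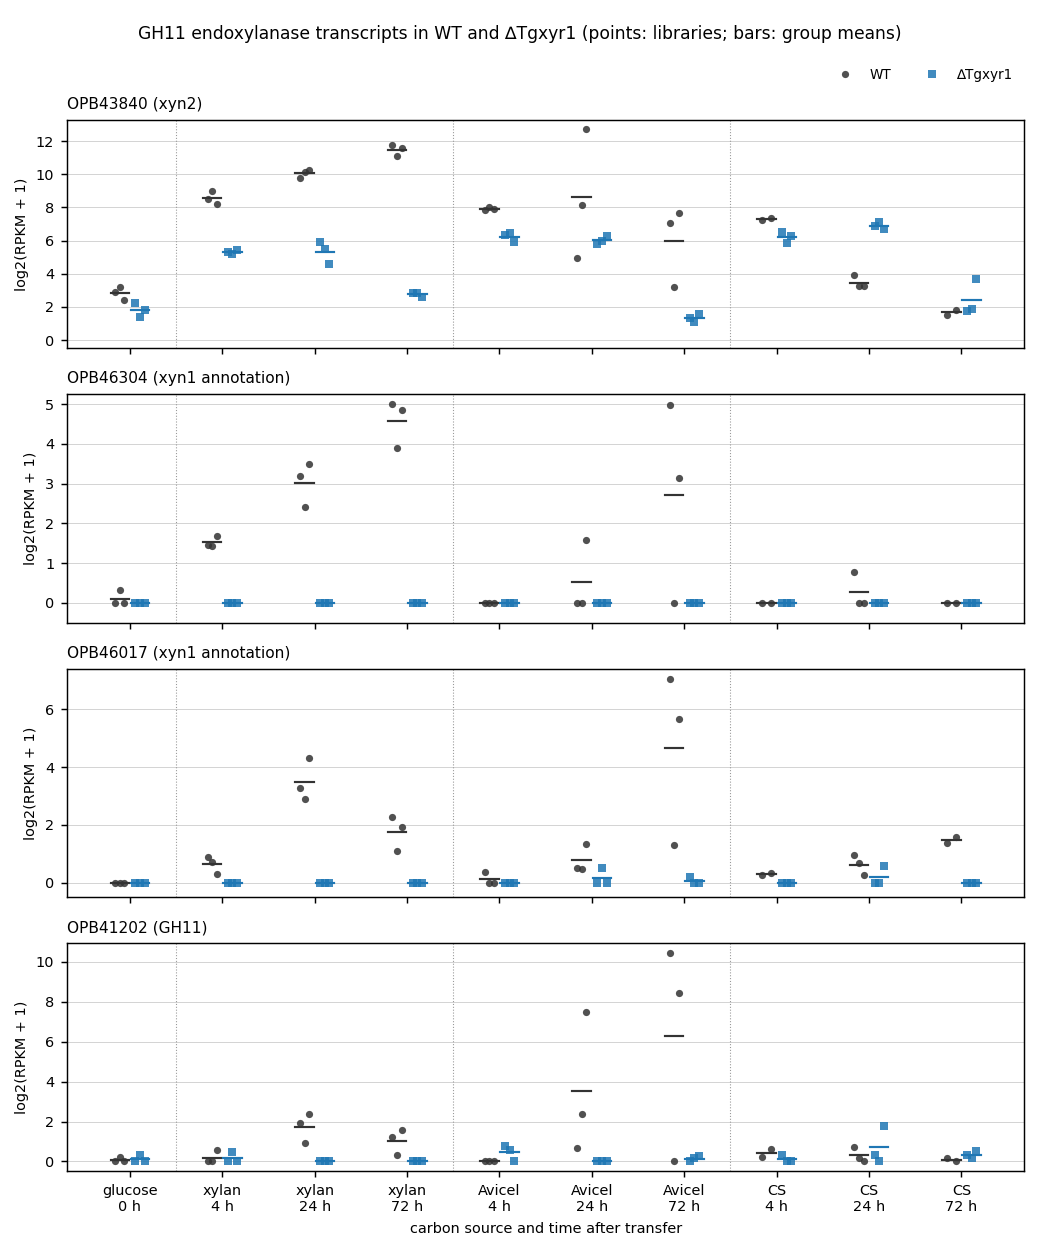
Level of each GH11 gene, log2(RPKM + 1), in every WT and ∆Tgxyr1 library by carbon source and hours after transfer, 1 panel per gene; points are libraries and bars are group means. On xylan WT xyn2 climbed from 295 to 514 RPKM at 4 h to 2181 to 3506 RPKM at 72 h, the 3 WT libraries on Avicel at 24 h spread from 30.3 to 6667 RPKM, and OPB46304 was listed at 0 in all 30 ∆Tgxyr1 libraries.

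Set against each other at the same time, the substrates differed by member and by time in WT, and OPB46017 changed direction between 24 and 72 h. At 4 h no member differed by the call between Avicel and xylan, where 0.0898% of all genes were called higher and 0.569% lower on Avicel. At 24 h OPB46304 (log2 difference -2.50, SE 0.62; adjusted p = 0.00039) and OPB46017 (-2.72, SE 0.69; adjusted p = 0.00059) were lower on Avicel, as were 7.78% of all genes, while 4.66% were higher. At 72 h xyn2 was lower on Avicel (-5.50, SE 1.02; adjusted p = 8e-06), as were 4.82% of all genes, whereas OPB46017 (2.92, adjusted p = 0.0004) and OPB41202 (5.25, SE 1.10; adjusted p = 6.5e-05) were higher, as were 2.83%. The xyn2 libraries at 72 h did not overlap between the substrates, whereas those of OPB46017 and OPB41202 did, through replicate 2 on Avicel. Without Avicel replicate 1 at 72 h, OPB46017 (1.72, adjusted p = 0.0488) and OPB41202 (3.18, adjusted p = 0.0177) were no longer called, and without replicate 2 their differences were 4.60 and 8.39. A fit on the compared groups alone ended the 3 calls at 72 h (adjusted p = 0.0413 to 0.244), and without both WT Avicel libraries that stood apart xyn2 was also called lower on Avicel at 24 h (-3.50, adjusted p = 0.00116).

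Under CS, xyn2 rose in WT at 4 h and returned toward the glucose level. Its libraries stood at 152 and 163 RPKM at 4 h, 14.0, 8.49 and 8.64 RPKM at 24 h and 1.92 and 2.51 RPKM at 72 h. All libraries at 4 and 24 h were above the 3 glucose libraries and both at 72 h were below them. Only the 4 h difference of 4.46 was called (SE 1.14; adjusted p = 0.0013), 1 of 12 member differences, against 3.78%, 5.97% and 7.62% of all genes called higher under CS at 4, 24 and 72 h. It was lost without either of the 2 libraries at 4 h (4.41 and 4.52, adjusted p = 0.0193 and 0.0163). The other members stayed at or under 1.96 RPKM in every WT library under CS.

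Against CS at the same time, 10 of 24 member differences of WT were called, none of them at 4 h, where xyn2 differed by 1.26 on xylan and 0.62 on Avicel and 0.858% and 0.00997% of all genes were called higher. At 24 h xyn2 was higher by 6.59 on xylan (SE 1.02; adjusted p = 1e-07) and by 5.14 on Avicel (adjusted p = 0.00038), and OPB46304 and OPB46017 by 2.76 and 2.87 on xylan, with 7.37% of all genes called on xylan and 0.229% on Avicel. At 72 h xyn2 was higher by 9.80 on xylan (SE 1.14; adjusted p = 3.4e-11) and OPB46304 by 4.58, with 8.56% of all genes called, and all 4 members were called higher on Avicel, with 6.42% of all genes. Those 4 Avicel differences were 4.30 for xyn2, 2.70 for OPB46304, 3.20 for OPB46017 and 6.19 for OPB41202. The xyn2 call on Avicel at 24 h was lost without replicate 3 (3.09, adjusted p = 0.0833). At 72 h on Avicel, leaving out Avicel replicate 1 or 3 or 1 of the CS libraries ended the calls of xyn2 (3.47 to 4.44, adjusted p = 0.0157 to 0.0349) and OPB46304 (1.57 to 2.70, adjusted p = 0.013 to 0.0672). The OPB46017 call was lost in the same way, CS replicate 2 excepted (2.01 to 3.11, adjusted p = 0.0134 to 0.0392). Without Avicel replicate 2 at 72 h the differences were 4.05 for OPB46304, 4.89 for OPB46017 and 9.33 for OPB41202, and without replicate 1 that of OPB41202 was 4.12. None of the 5 Avicel calls held in a fit on the compared groups alone (adjusted p = 0.0475 to 0.442).

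In ∆Tgxyr1, 3 members were at or near 0, and xyn2 was called lower than in WT on xylan at every time and on Avicel only at 72 h. OPB46304 was listed at 0 in all 30 ∆Tgxyr1 libraries, OPB46017 was above 0 in 3 of them, with at most 0.489 RPKM, and OPB41202 was at 0 in 18, with at most 2.39 RPKM. In ∆Tgxyr1, xyn2 stood at 3.77, 1.64 and 2.55 RPKM on glucose. On xylan it stood at 38.3, 36.1 and 42.7 RPKM at 4 h, 60.2, 44.3 and 22.9 RPKM at 24 h and 6.03, 6.28 and 5.15 RPKM at 72 h. These libraries lay below all WT libraries of the same time, whose means were 9.96, 25.4 and 500.2 times as high. The log2 differences from WT were -3.25, -4.72 and -8.71 (SE 1.02; adjusted p = 0.0075, 5.9e-05 and 2.4e-11), where 3.23%, 5.59% and 6.51% of all genes were called lower on xylan in ∆Tgxyr1 at 4, 24 and 72 h. The 4 h call was lost without any 1 of the 6 libraries (-3.43 to -3.03, adjusted p = 0.0146 to 0.0318).

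On Avicel, xyn2 in ∆Tgxyr1 stood at 78.8, 88.5 and 58.3 RPKM at 4 h, 54.1, 63.2 and 78.2 RPKM at 24 h and 1.53, 1.17 and 2.0 RPKM at 72 h. The libraries lay below those of WT at 4 and 72 h and overlapped with them at 24 h. The log2 differences from WT were -1.69 and -2.58 at 4 and 24 h (adjusted p = 0.2 and 0.026, not called) and -4.63 at 72 h (adjusted p = 1e-04, called), where 2.41%, 4.79% and 5.47% of all genes were called lower. Without both WT Avicel libraries that stood apart, the xyn2 difference at 24 h was -0.53 (adjusted p = 0.676). OPB46304 was below WT on xylan at 24 h (-3.02) and 72 h (-4.58) and on Avicel at 72 h (-2.70). OPB46017 was lower on xylan at 24 h (-3.50) and Avicel at 72 h (-4.61). OPB41202 was lower on Avicel at 24 h (-3.51, adjusted p = 0.0047) and 72 h (-6.14, adjusted p = 2.9e-06). In all, 11 of 24 member differences on the polysaccharides were called lower and none higher, and at 0 h none was called. The OPB41202 call at 24 h was lost without WT replicate 3 (-1.52, adjusted p = 0.262) or any 1 ∆Tgxyr1 library (adjusted p = 0.013 to 0.0136), and the OPB46304 call on Avicel without WT replicate 1 (-1.57, adjusted p = 0.0361). OPB41202 at 72 h was -4.07 and -9.28 without WT replicates 1 and 2, and OPB46304 was -4.05 without WT replicate 2. A fit on the compared groups alone ended all 5 Avicel calls (adjusted p = 0.0461 to 0.167).

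Within ∆Tgxyr1, xyn2 still rose after transfer, also without any carbon source. Under CS it stood at 91.2, 58.0 and 76.8 RPKM at 4 h, 115, 136 and 102 RPKM at 24 h and 2.45, 2.67 and 11.8 RPKM at 72 h. Compared with its own glucose libraries, xyn2 was called higher at 4 and 24 h on xylan (3.49 and 3.51, adjusted p = 0.0026 and 0.002), on Avicel (4.40 and 4.20, adjusted p = 0.00019 and 0.00026) and under CS (4.40 and 5.06, adjusted p = 0.0002 and 1.7e-05), but not at 72 h in any of the 3 media (0.94, -0.48 and 0.62). No other member was called. That gave 4 of 24 on the polysaccharides, where the shares of all genes called higher were 8.98%, 12% and 10.2% on xylan and 7.57%, 11.4% and 7.28% on Avicel at 4, 24 and 72 h. Under CS it gave 2 of 12, where the shares were 6.97%, 10.3% and 7.84%. Its xylan libraries lay below all CS libraries at 4 and 24 h, and its Avicel libraries did at 24 and 72 h. The difference of xyn2 between a polysaccharide and CS at the same time ran from -1.55 to 0.32 on the log2 scale in the mutant and was called at no time. The drop from 24 to 72 h was called on Avicel (-4.68, adjusted p = 0.00011) and under CS (-4.44, adjusted p = 0.00028), as it was for 6.76% and 5.75% of all genes. Both xylan calls against glucose were lost without glucose replicate 2 (3.28 and 3.30, adjusted p = 0.0133 and 0.0105), and that at 24 h also without xylan replicate 1 (3.21, adjusted p = 0.0126).

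At 24 h under CS the order of the strains was turned. The 3 ∆Tgxyr1 libraries, at 102 to 136 RPKM, lay above the 3 WT libraries, at 8.49 to 14.0 RPKM, a mean 11.4 times as high. The log2 difference was 3.41 (SE 1.02; adjusted p = 0.0038), the only 1 of 12 member differences called between the strains under CS, and 5.64% of all genes were called higher there. It was lost without WT replicate 2 or 3 or ∆Tgxyr1 replicate 1 or 2 (3.30 to 3.42, adjusted p = 0.0109 to 0.0149). At 4 h the difference was -1.08 and at 72 h 0.77, neither called.

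In ∆Tgace1, xyn2 at 24 h was the highest of any gene and group described here. On glucose it stood at 1.37, 1.13 and 4.96 RPKM. On xylan it stood at 242, 129 and 362 RPKM at 4 h, 20444, 7767 and 34526 RPKM at 24 h and 6780.0, 5491 and 12373 RPKM at 72 h. On Avicel it stood at 59.1, 320.0 and 43.8 RPKM at 4 h, 7175, 31397 and 29821 RPKM at 24 h and 341, 1511 and 7.47 RPKM at 72 h. At 24 h all 3 libraries on either substrate were above all WT libraries of that substrate, at 4 h the strains overlapped, and on Avicel at 72 h replicate 3 of the mutant, was below all WT libraries. Of these libraries, replicate 2 on Avicel at 4 h, replicate 1 at 24 h and replicate 3 at 72 h were each closer over all genes to a library of another group, as were replicate 3 on glucose and replicate 2 on xylan at 24 h. The means at 24 h were 19.4 times that of WT on xylan and 9.80 times on Avicel, with log2 differences of 4.04 (SE 1.02; adjusted p = 0.00059) and 5.59 (adjusted p = 5.6e-06), where 4.42% and 4.16% of all genes were called higher. The WT mean on Avicel rests on replicate 3, and without it the mean of ∆Tgace1 was 145 times that of WT, with a log2 difference of 7.64 when both WT Avicel libraries that stood apart were left out. That replicate was picked by its high xylanase values, so its removal could only raise this excess. On xylan at 72 h xyn2 was 2.82 times as high in the mean without being called. In a fit on the compared groups alone the Avicel difference at 24 h was not called (adjusted p = 0.066).

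The other members rose in ∆Tgace1 chiefly on xylan at 24 h, a time at which WT held them at 0.899 to 18.8 RPKM. OPB46304 stood at 1337, 529 and 1976 RPKM, OPB46017 at 1563, 150.0 and 1988 RPKM and OPB41202 at 2695, 452 and 3602 RPKM. In all 3 genes replicate 2 was the lowest, as it was for xyn2, and this library was closer to another group over all genes, yet it too was above every WT library at that time. The log2 differences from WT were 7.11 for OPB46304 (SE 0.62; adjusted p = 9.3e-16), 6.11 for OPB46017 (SE 0.69; adjusted p = 1.7e-11) and 8.94 for OPB41202 (SE 1.10; adjusted p = 2.1e-10), so that all 4 members were called. By 72 h on xylan the 3 genes had dropped to 57.6, 5.66 and 79.5 RPKM for OPB46304, 19.9, 1.03 and 24.2 RPKM for OPB46017 and 98.0, 3.14 and 117 RPKM for OPB41202. The drops of -5.15, -6.25 and -5.49 were called, as they were for 3.05% of all genes, although not in a fit on the compared groups alone (adjusted p = 0.0159 to 0.0335). That of xyn2 was -1.19 and was not called.

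On Avicel at 24 h the xyn1 members stayed low in ∆Tgace1, with 0, 1.94 and 2.41 RPKM of OPB46304 and OPB46017 listed at 0 in all 3 libraries. Compared with xylan at that time their log2 differences were -9.02 (SE 0.62; adjusted p = 7.6e-20) and -9.60 (SE 0.69; adjusted p = 8.6e-19), whereas xyn2 differed by 0.10 between the substrates and 3.08% of all genes were called lower on Avicel. OPB41202 stood at 101, 854 and 662 RPKM there and at 2195, 1903 and 347 RPKM at 72 h. Its log2 differences from WT on Avicel were 5.08 at 24 h (adjusted p = 0.00011), with an overlap between the strains, and 3.86 at 72 h (adjusted p = 0.0028). It was also higher on xylan at 72 h (4.15, adjusted p = 0.00096). OPB46304 was higher than in WT on Avicel at 72 h (2.13, adjusted p = 0.0032), with 66.9, 53.6 and 5.30 RPKM. That made 9 of 28 member differences between ∆Tgace1 and WT, all higher, with 3.3% of all genes called higher on xylan and 3.26% on Avicel at 72 h and no member called at 0 or 4 h. Without WT replicate 1 the Avicel differences at 72 h were 3.27 for OPB46304 and 5.93 for OPB41202, and without ∆Tgace1 replicate 3 that of OPB46304 was 3.23. Both Avicel calls at 72 h were lost without WT replicate 2 (0.78 and 0.72, adjusted p = 0.262 and 0.519) or without ∆Tgace1 replicate 1 or 2 (1.51 to 3.49, adjusted p = 0.0183 to 0.0627). The call of OPB41202 was lost at 24 h without WT replicate 1 (3.66, adjusted p = 0.0109) and on xylan without ∆Tgace1 replicate 1 or 3 (3.31 and 3.43, adjusted p = 0.0196 and 0.0154). None of the 4 held in a fit on the compared groups alone (adjusted p = 0.0159 to 0.407).

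In ∆Tgace2, xyn2 had its highest mean at 72 h on xylan and at 24 h on Avicel. Here xyn2 stood at 13.2, 11.7 and 54.4 RPKM on glucose, above all WT libraries but without a call. On xylan it stood at 113, 189 and 175 RPKM at 4 h, 1278, 1663 and 1964 RPKM at 24 h and 18005, 11502 and 17667 RPKM at 72 h. It was below all WT libraries at 4 h and above all of them at 24 and 72 h, yet none of these differences was called (2.43 at 72 h, adjusted p = 0.045). On Avicel it stood at 77.4, 290.2 and 304 RPKM at 4 h, 17153, 15619 and 15359 RPKM at 24 h and 84.0, 2620.1 and 506 RPKM at 72 h. The 24 h level of 16044 ± 969 (SD, n = 3) was 6.89 times the WT mean and above all WT libraries, a log2 difference of 5.36 (SE 1.02; adjusted p = 8.6e-06), where 7.52% of all genes were called higher. It was 3.54 without WT replicate 1. Without WT replicate 3 the ratio of means was 102, and without both WT Avicel libraries that stood apart the log2 difference was 7.41. Here too, the removal of WT replicate 3 could only raise the excess. The call did not pass in a fit on the compared groups alone (adjusted p = 0.0233).

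The other members in ∆Tgace2 had their highest xylan mean at 72 h, as OPB46304 also did in WT. For OPB46304 the ∆Tgace2 libraries at 24 and 72 h overlapped. OPB46304 stood at 81.3, 49.5 and 105 RPKM at 24 h and 177, 104 and 64.5 RPKM at 72 h. At the same times OPB46017 stood at 8.04, 4.89 and 17.9 RPKM and then 137, 85.6 and 36.2 RPKM. OPB41202 stood at 53.7, 39.5 and 92.8 RPKM and then 407, 233 and 134 RPKM. All were above every WT library of the same time except OPB46017 at 24 h, which overlapped. Called differences from WT on xylan were 3.22 (adjusted p = 2.6e-05) and 4.15 (adjusted p = 0.0022) for OPB46304 and OPB41202 at 24 h, with 1.48% of all genes called higher. At 72 h they were 2.16 (adjusted p = 0.0028), 4.50 (adjusted p = 1.2e-07) and 6.84 (adjusted p = 3.2e-07) for OPB46304, OPB46017 and OPB41202, with 3.78% of all genes called higher. The OPB41202 call at 24 h was lost without WT replicate 2 or ∆Tgace2 replicate 3 (3.74 and 3.82, adjusted p = 0.0158 and 0.0157), and the OPB46304 call at 72 h without WT replicate 2 or ∆Tgace2 replicate 1 (1.82 and 1.80, adjusted p = 0.0287 and 0.0313).

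On Avicel in ∆Tgace2 the xyn1 members were again low at 24 h, with at most 0.486 RPKM of OPB46304 and 1.87 RPKM of OPB46017, whereas OPB41202 stood at 301, 322 and 483 RPKM. At 72 h OPB46304 stood at 37.0, 10.8 and 29.6 RPKM, OPB46017 at 5.64, 1.32 and 1.92 RPKM and OPB41202 at 822, 906 and 943 RPKM. OPB41202 was higher than in WT by 4.98 at 24 h (SE 1.10; adjusted p = 9.8e-05), without overlap, and by 3.52 at 72 h (adjusted p = 0.0077), within the WT range of 0 to 1371 RPKM. OPB46017 at 72 h was called lower than in WT (-2.84, SE 0.69; adjusted p = 0.00064), as were 1.6% of all genes, and 3.9% were called higher. It was called lower in ∆Tgace1 too once both WT Avicel libraries that stood apart were left out (-3.09, adjusted p = 3.3e-05). These brought the count for ∆Tgace2 to 9 of 28, with none at 0 or 4 h. At 72 h the OPB41202 difference was 5.59 without WT replicate 1 and 0.37 without WT replicate 2 (adjusted p = 0.787), was lost without any 1 ∆Tgace2 library (3.47 to 3.57, adjusted p = 0.0182 to 0.0236) and turned to -0.065 with library weights. That of OPB46017 was -1.65 and -2.35 without WT replicate 1 or 3 (adjusted p = 0.0546 and 0.0105) and -4.53 without replicate 2. Neither these calls nor that of OPB41202 at 24 h held in a fit on the compared groups alone (adjusted p = 0.0223 to 0.451).

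**Figure D2:**
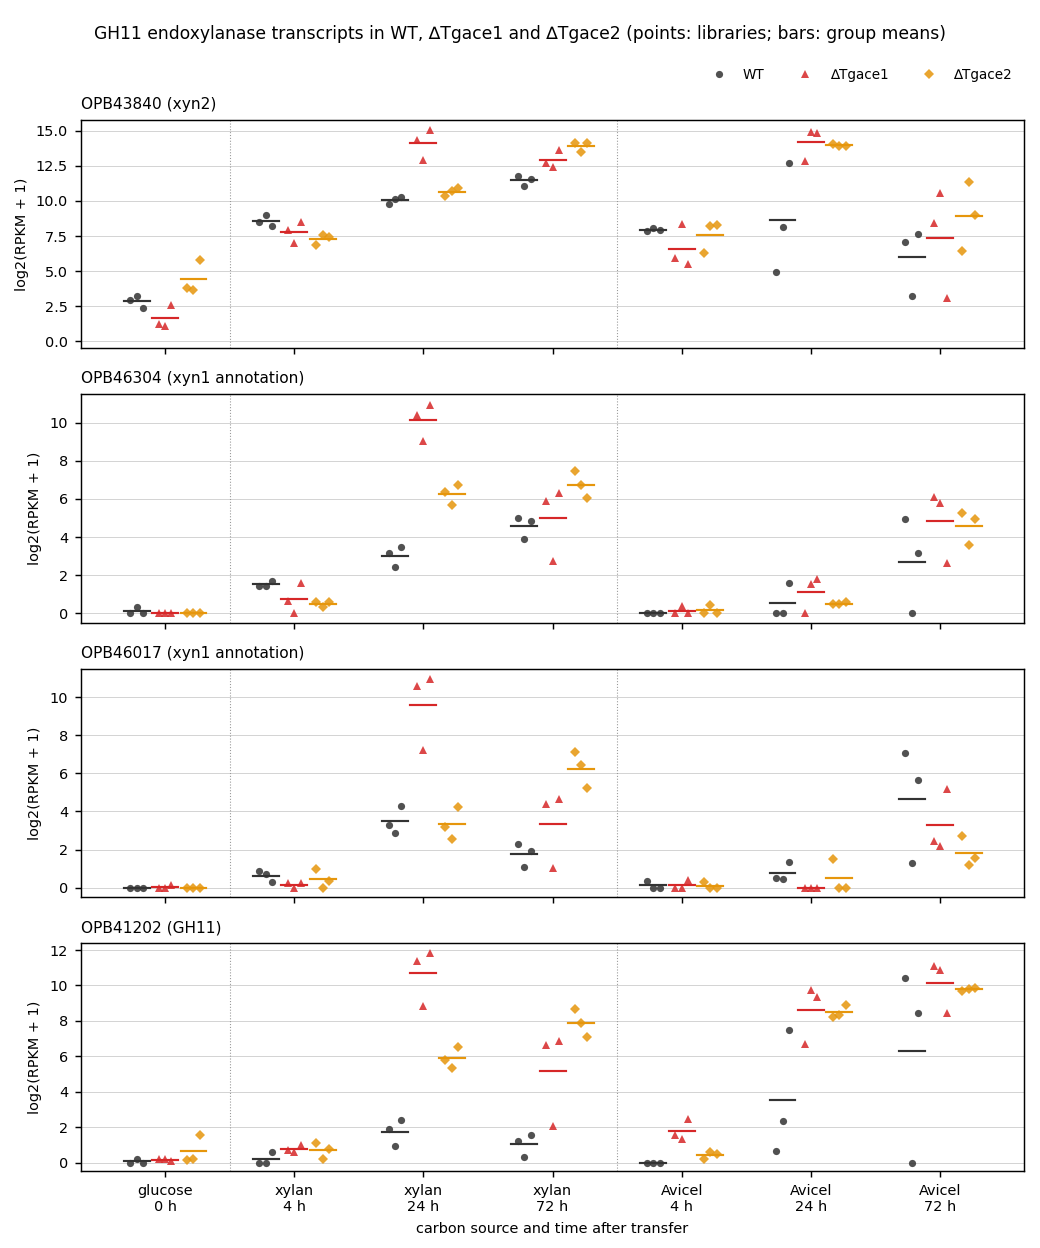
Level of each GH11 gene, log2(RPKM + 1), in every WT, ∆Tgace1 and ∆Tgace2 library by carbon source and hours after transfer; points are libraries and bars are group means. On xylan at 24 h the ∆Tgace1 libraries reached 7767 to 34526 RPKM of xyn2 and 452 to 3602 RPKM of OPB41202. Among the xylan groups of ∆Tgace2, each gene had its highest mean at 72 h, with OPB46304 overlapping between 24 and 72 h. On Avicel, xyn2 at 24 h and OPB41202 at 72 h had higher ∆Tgace2 means than on xylan at 72 h.

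Compared with their own glucose libraries, 16 of 24 member differences on the polysaccharides were called higher in ∆Tgace1 and 14 of 24 in ∆Tgace2. The shares of all genes called higher at 4, 24 and 72 h were 7.61%, 6.41% and 5.97% on xylan and 6.05%, 4.27% and 4.07% on Avicel in ∆Tgace1, and 5.86%, 5.19% and 8.47% on xylan and 5.0%, 7.24% and 5.79% on Avicel in ∆Tgace2. For xyn2 in ∆Tgace1 these were 6.18, 12.47 and 11.28 on xylan and 4.94, 12.57 and 5.72 on Avicel at 4, 24 and 72 h (SE 1.02). In ∆Tgace2 they were 2.86 (adjusted p = 0.016, not called), 6.23 and 9.49 on xylan and 3.15 (adjusted p = 0.0086), 9.54 and 4.49 on Avicel. OPB41202 rose by 10.51 and 5.02 in ∆Tgace1 and by 5.26 and 7.24 in ∆Tgace2 on xylan at 24 and 72 h, and by 8.42 and 9.98 and by 7.86 and 9.17 on Avicel. The ∆Tgace2 call of xyn2 on Avicel at 4 h was lost without glucose replicate 1 or 2 or Avicel replicate 2 or 3 (2.77 to 2.85, adjusted p = 0.0415 to 0.0484) and that at 72 h without Avicel replicate 2 (3.27, adjusted p = 0.0138). That of OPB46017 on Avicel at 72 h in ∆Tgace1 (3.22) ended without replicate 3 (2.28, adjusted p = 0.0115). A fit on the compared groups alone ended 6 of the 30 calls, all at 72 h (adjusted p = 0.0148 to 0.0797).

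The difference between the responses of a mutant and WT was tested as an interaction. For ∆Tgxyr1 6 of 24 responses on the polysaccharides were called lower than that of WT, among them xyn2 on xylan at 72 h (-7.70, SE 1.44; adjusted p = 1.2e-05). The shares of all genes called lower were 4.95% there, 4.55% on xylan at 24 h and 3.53% on Avicel at 72 h, the other conditions with a call. For ∆Tgace1 and ∆Tgace2 together 9 of 48 were called with all libraries in, each of them higher, among them all 4 members in ∆Tgace1 on xylan at 24 h (5.25 for xyn2, 7.21 for OPB46304, 6.06 for OPB46017 and 8.84 for OPB41202), where 2.6% of all genes were called higher. The xyn2 value there lost its call without WT glucose replicate 2, WT xylan replicate 1, ∆Tgace1 glucose replicate 1 or 2 or ∆Tgace1 xylan replicate 1 or 3 (4.77 to 5.14, adjusted p = 0.0107 to 0.0203). The ∆Tgace1 response of xyn2 on Avicel at 24 h was higher than that of WT by 6.80 (SE 1.44; adjusted p = 0.00013), with 5.59% of all genes called higher. In ∆Tgace2 1 member was called on xylan at 24 h and 2 at 72 h, where 1.02% and 3.44% of all genes were called higher, and none on Avicel. Leaving out both WT Avicel libraries that stood apart changed the Avicel responses. In ∆Tgace2 those of xyn2 (5.82, adjusted p = 0.00013) and OPB41202 (6.42, adjusted p = 1.9e-07) were then called higher than that of WT at 24 h. At 72 h the OPB46017 response was then called lower than that of WT in ∆Tgace1 (-3.14, adjusted p = 0.0041) and ∆Tgace2 (-4.53, adjusted p = 7.2e-05). In ∆Tgxyr1 xyn2 (-5.00, adjusted p = 0.00083) and OPB46304 (-3.95, adjusted p = 2.5e-05) joined those called lower at 72 h.

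On Avicel the order of xyn2 and OPB41202 changed between 24 and 72 h. Over the 9 libraries of WT, ∆Tgace1 and ∆Tgace2 at 24 h, the ratio of OPB41202 to xyn2 ran from 0.0140 to 0.0314 with a median of 0.0206, and OPB41202 was the lower gene in all 9. At 72 h the ratio ran from 0 to 46.5 with a median of 1.86, and OPB41202 was the higher gene in 7 of 9 libraries. The exceptions were replicate 2 of WT, where OPB41202 was listed at 0, and replicate 2 of ∆Tgace2, with 906 RPKM of OPB41202 and 2620.1 RPKM of xyn2. Between 24 and 72 h xyn2 dropped by 6.85 on the log2 scale in ∆Tgace1 (adjusted p = 4.8e-07) and by 5.05 in ∆Tgace2 (adjusted p = 0.00015), calls made for 0.778% and 0.908% of all genes. In WT it dropped by 2.63 (adjusted p = 0.038, not called). Without both WT Avicel libraries that stood apart, the WT difference changed direction, to 0.81 higher at 72 h (adjusted p = 0.546). OPB41202 was not called between these times in any of the 3 strains, except in WT once both libraries that stood apart were left out (7.90, adjusted p = 5.5e-13). The drop of xyn2 did not pass in a fit on the compared groups alone (adjusted p = 0.184 in ∆Tgace1 and 0.0134 in ∆Tgace2), and that in ∆Tgace2 was lost without replicate 1 at 72 h (-3.80, adjusted p = 0.0135).

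**Figure D3:**
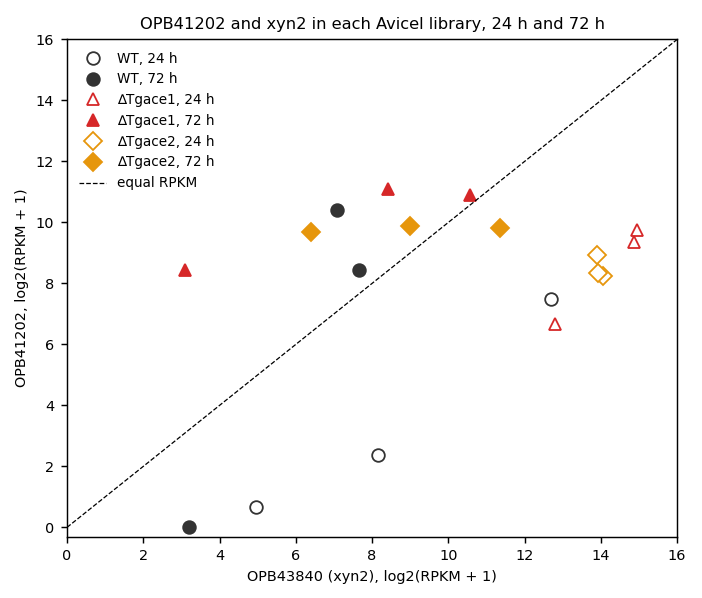
OPB41202 against xyn2, both as log2(RPKM + 1), in each Avicel library of WT, ∆Tgace1 and ∆Tgace2 at 24 h (open) and 72 h (filled); the dashed line marks equal RPKM. The 9 libraries at 24 h lie below the line, with ratios of 0.0140 to 0.0314, and 7 of the 9 libraries at 72 h lie above it.

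At 72 h xyn2 was lower on Avicel than on xylan in ∆Tgace1 (-5.56, SE 1.02; adjusted p = 2.6e-05) and in ∆Tgace2 (-4.99, adjusted p = 0.0001), where 0.958% and 1.42% of all genes were called lower. OPB41202 was higher on Avicel in ∆Tgace1 (4.96, SE 1.10; adjusted p = 0.00045), where 2.62% were called higher. At 24 h the ∆Tgace2 libraries of xyn2 on Avicel were above those on xylan (3.31, SE 1.02; adjusted p = 0.0061), with 3.97% of all genes called higher. OPB46304 and OPB46017 were lower on Avicel (-5.74 and -2.82), with 2.56% called lower. The ∆Tgace2 call of xyn2 at 24 h was lost without any 1 of its 6 libraries (3.15 to 3.46, adjusted p = 0.0131 to 0.0239). That of OPB46017 was lost without xylan replicate 3 (-2.36, adjusted p = 0.0116) and that of OPB41202 in ∆Tgace1 without xylan replicate 2 (3.39, adjusted p = 0.0354). In ∆Tgace1 xyn2 was -3.42 without Avicel replicate 3, and neither ∆Tgace1 call at 72 h held in a fit on the compared groups alone (adjusted p = 0.102 and 0.083).

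The 4 genes varied together over the study only in part. Over the 100 libraries, which include replicates of 34 groups, Pearson's r of log2(RPKM + 1) was 0.891 between OPB46304 and OPB46017, 0.753 between OPB46304 and OPB41202 and 0.687 between OPB46017 and OPB41202. It was 0.687, 0.654 and 0.517 between xyn2 and, in turn, OPB41202, OPB46304 and OPB46017. Among the other annotated genes tested, those most like xyn2 over the 100 libraries were the acetyl xylan esterase OPB46214 (r = 0.905), the permease OPB41253 (0.865) and the β-xylosidase OPB36249, BXL1 (0.815). Most like OPB46304 were the β-xylosidase OPB40840 (0.883), the xylulokinase OPB45197 (0.825), which phosphorylates xylulose, and the α-glucuronidase OPB39965 (0.801). Most like OPB46017 were OPB40840 (0.839), the GH30 xylanase OPB45639 (0.801) and OPB39965 (0.761). Most like OPB41202 were the GH30 xylanases OPB45639 (0.952), also listed for OPB46017, and OPB40699 (0.936) and the GH67 gene OPB40700 (0.926). Over the 34 group means the values of these 12 pairs ran from 0.792 to 0.966.

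Of 11 other xylan-degrading genes, all tested, 4, 6 and 3 were called higher than at 0 h in WT on xylan at 4, 24 and 72 h, 1, 6 and 6 on Avicel and 1, 2 and 2 under CS. In ∆Tgxyr1 against WT, 2, 3 and 2 were called lower on xylan and 0, 5 and 6 on Avicel, with medians of -1.12 on xylan at 24 h and -2.51 on Avicel at 72 h beside 0 and -0.02 over all genes tested. OPB46214, which splits off the acetyl side groups, fell by 7.45 in ∆Tgxyr1 relative to WT after 72 h on xylan (log2, SE 0.91; adjusted p = 1.1e-10). The α-L-arabinofuranosidase OPB38106, which removes arabinose side groups, went the other way on xylan at 24 h, with 183 ± 18.3 RPKM in ∆Tgxyr1 and 37.5 ± 6.23 in WT (SD, n = 3; log2 difference 2.27, called higher). In ∆Tgace1 against WT, 2, 8 and 6 of the 11 were called higher on xylan at 4, 24 and 72 h and 0, 8 and 2 on Avicel, with 1 called lower on Avicel at 24 h. In ∆Tgace2 1, 0 and 5 were called higher on xylan, with 1 lower at 24 h, and 1, 6 and 3 on Avicel. Without both WT Avicel libraries that stood apart, the Avicel counts at 24 and 72 h became 3 and 7 for WT against 0 h and 1 and 7 lower in ∆Tgxyr1. They became 8 and 1 higher in ∆Tgace1, with 1 lower at each time, and 7 and 1 higher in ∆Tgace2. Shares of all genes called in most of these comparisons stand beside the member counts above. None is given for ∆Tgace1 and ∆Tgace2 against WT at 4 h or for genes called lower in them at 24 h. The counts without both libraries also have none. Counts of 1 or 2 of 11 are not read as a result about these genes.

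The GH10 endoxylanase OPB40690 (XYN3), from the other main family of endoxylanases, was called higher than at 0 h on Avicel at 24 h in WT (3.32), ∆Tgace1 (9.95) and ∆Tgace2 (8.32). The WT call was lost without both WT Avicel libraries that stood apart (1.22, adjusted p = 0.0271). Its libraries there ran from 0.233 to 183 RPKM in WT, from 362 to 1950 RPKM in ∆Tgace1 and from 442 to 551 RPKM in ∆Tgace2, and it was listed at 0 in the 3 ∆Tgxyr1 libraries. The genes of xylose use, xylose reductase OPB37877 and xylitol dehydrogenase OPB44156, were both called higher than at 0 h on xylan at all 3 times in WT, and both were called lower in the xylan-grown ∆Tgxyr1 relative to WT at 24 h (-3.43 and -3.92) and 72 h (-2.33 and -2.88). At 24 h TgXyr1 was called higher in ∆Tgace1 relative to WT on xylan (2.60, SE 0.40; adjusted p = 9.6e-08) and on Avicel (2.14, adjusted p = 9.2e-06), and its part in the xylanase levels of that strain was not tested. The ACE3 homolog OPB36832 stood at 8.01 to 200.4 RPKM in WT, 11.2 to 36.5 in ∆Tgxyr1, 13.3 to 310.1 in ∆Tgace1 and 10.7 to 159 in ∆Tgace2.

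**Figure D4:**
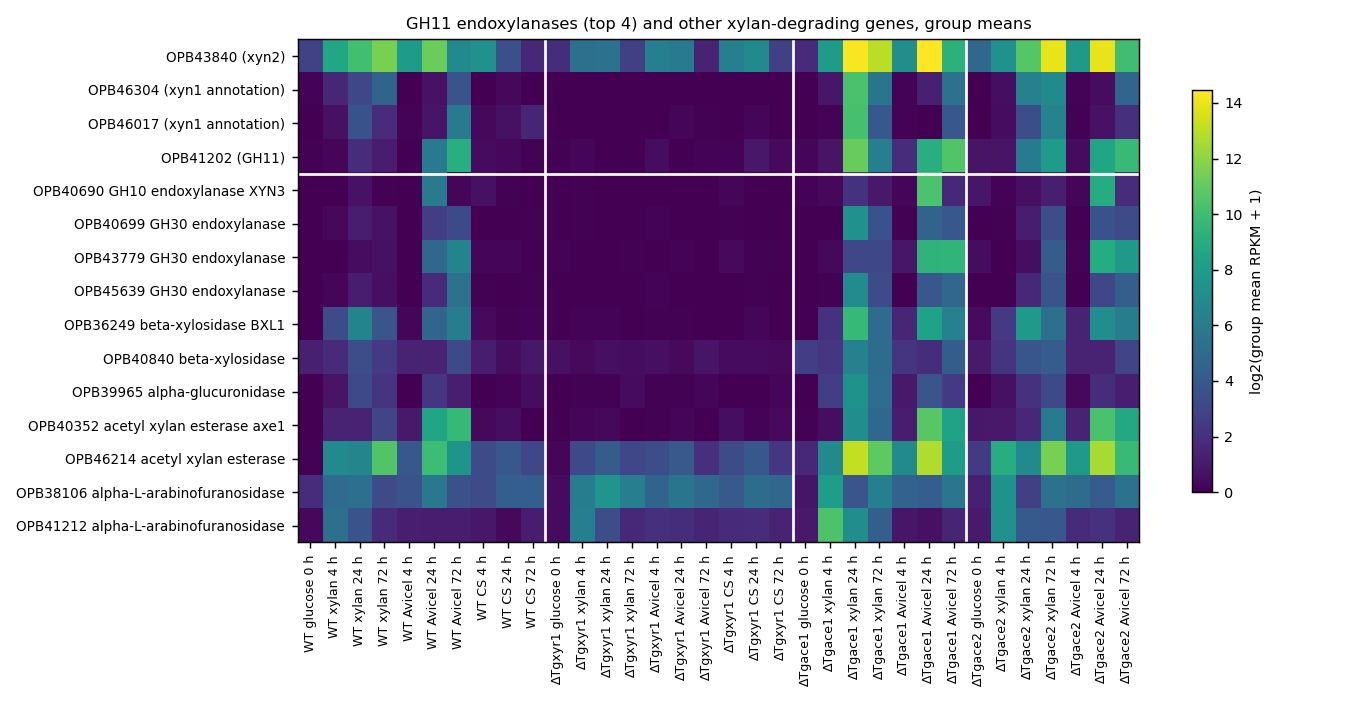
Group level, log2(group mean RPKM + 1), of the 4 GH11 genes (upper rows) and 11 other xylan-degrading genes (lower rows) in the 34 groups, on 1 colour scale. The brightest GH11 cells are those of xyn2 at 24 h in ∆Tgace1, with means of 20912 RPKM on xylan and 22798 RPKM on Avicel, and the ∆Tgxyr1 cells of OPB46304 are at 0.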

How the data were processed

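RNA-seq libraries of WT, ∆Tgxyr1, ∆Tgace1 and ∆Tgace2 were grouped by strain, carbon source and time as GEO labels them. Per the submitters' notes the authors used TopHat2, Cufflinks, Cuffnorm and Cuffdiff, with versions and settings not given in the sources used here, and the authors deposited 1 table of RPKM per gene and library, a unit normalized for gene length and mapped reads. The study's methods call the unit FPKM. Whole reads could not be recovered from the RPKM values, so read depth is unknown, no counting interval was computed, and a value of 0 is given only as listed.

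From these values log2(RPKM + 1) was computed for the 10026 of 11244 genes over 1 RPKM in at least 2 libraries. A model with 34 group means and 66 residual degrees of freedom was fitted with limma 3.58.1 (R 4.3.3, eBayes with trend), with 119 contrasts, and p-values were adjusted by Benjamini-Hochberg over all genes within each contrast. A difference was called at an adjusted p of at most 0.01, a size of at least 2 on the log2 scale and a mean over 2 RPKM in the higher group. The last limit was not used for differences between responses. The procedure was tested on simulated data with known changes. In these each gene had the same spread in all groups, and only genes well above 0 on glucose were changed. Groups of unequal scatter and genes near 0 were therefore not tested.

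The GH11 genes and the lists of other genes (other xylan-degrading genes, xylose use, regulators) were chosen with earlier results of these data known. The likeness rule took, for each member, the 3 annotated genes outside the family with the highest r over the 100 libraries. Comparisons between substrates and times within the mutants, and of ∆Tgxyr1 with CS, were added after the values were seen and come from the same fit. Alternatives were pseudocounts of 0.1 and 2, no filter and a stricter filter, median-ratio scaling, library weights, unadjusted p, a replicate block, a fit on the compared groups alone, and leaving out each library. Leaving out 2 WT Avicel libraries together was added after the data were seen. Figures were drawn with matplotlib 3.10.9. The replicate numbers did not pair the samples. The level of the gene deleted in ∆Tgace2 is not reported here.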

Additional observations from a re-analysis of the deposited data

Results flagged for a closer look

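In 15 cases the response of a member from 0 h differed between a mutant and WT by a test of the difference itself (interaction term in limma, Benjamini-Hochberg adjusted, SE 1.44 for xyn2, 0.87 for OPB46304, 0.98 for OPB46017 and 1.55 for OPB41202). In ∆Tgxyr1 the response was smaller on xylan at 24 h for OPB46304 (-2.92, adjusted p = 0.0049) and OPB46017 (-3.50, adjusted p = 0.0028), on xylan at 72 h for xyn2 (-7.70, adjusted p = 1.2e-05) and OPB46304 (-4.47, adjusted p = 2.4e-05), and on Avicel at 72 h for OPB46017 (-4.61, adjusted p = 0.00017) and OPB41202 (-6.17, adjusted p = 0.0014). In ∆Tgace1 it was larger on xylan at 24 h for xyn2 (5.25, adjusted p = 0.0043), OPB46304 (7.21, adjusted p = 1.7e-09), OPB46017 (6.06, adjusted p = 2.2e-06) and OPB41202 (8.84, adjusted p = 1.1e-05), and on Avicel at 24 h for xyn2 (6.80, adjusted p = 0.00013) and OPB41202 (4.98, adjusted p = 0.0088). In ∆Tgace2 it was larger on xylan at 24 h for OPB46304 (3.33, adjusted p = 0.0048) and on xylan at 72 h for OPB46017 (4.50, adjusted p = 0.00022) and OPB41202 (6.28, adjusted p = 0.0011). The 4 members share these WT libraries and the 0 h libraries, so the 15 values are not independent.

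Leaving out single libraries ended 6 of the 15 calls. Those were, in ∆Tgxyr1, OPB46304 on xylan at 24 h without WT glucose replicate 1 or 3 or WT xylan replicate 1 or 3 (-2.86 to -2.69, adjusted p = 0.0107 to 0.0166), OPB46017 on xylan at 24 h without WT xylan replicate 3 (-3.09, adjusted p = 0.0137) and OPB41202 on Avicel at 72 h without WT Avicel replicate 1 or 3 (-4.10 and -5.10, adjusted p = 0.0304 and 0.0134), while the last was -9.31 without WT Avicel replicate 2. In ∆Tgace1 they were xyn2 on xylan at 24 h without WT glucose replicate 2, WT xylan replicate 1, ∆Tgace1 glucose replicate 1 or 2 or ∆Tgace1 xylan replicate 1 or 3 (4.77 to 5.14, adjusted p = 0.0107 to 0.0203) and OPB41202 on Avicel at 24 h without any 1 library except WT Avicel replicate 3 and ∆Tgace1 Avicel replicate 1 (3.56 to 5.02, adjusted p = 0.0142 to 0.0765). In ∆Tgace2 it was OPB46304 on xylan at 24 h without WT glucose replicate 2, WT xylan replicate 2 or replicate 1 or 2 on glucose or 1 or 3 on xylan of the mutant (3.02 to 3.33, adjusted p = 0.0103 to 0.018).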

How the results depend on the processing

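Of 147 called member differences, none was lost under median-ratio scaling (factors 0.968 to 1.04, which moved the median of all genes by at most 0.05) or the filter of over 5 RPKM in at least 3 libraries, and unadjusted p could only add calls. Factors this close to 1 hardly change the values, so the scaling could move few calls. With no filter 2 were lost, with a pseudocount of 0.1 7, with a pseudocount of 2 8 and with library weights 3, besides 1 more that also changed direction. The difference of OPB41202 between ∆Tgace2 and WT on Avicel at 72 h reversed with library weights, to -0.065 (adjusted p = 0.983) from 3.52. The cause was not tested.

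The replicate block changed no call (147 of 147 kept), and every count of calls stayed as it was, for example 6 of 12 in WT on xylan. Same-numbered libraries did not vary together, with every correlation of deviations over 0.1 in 1 of 88 comparisons with 3 pairs (median of the mean correlations -0.01), so the numbers were not used as pairs.

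Fitting only the libraries of the compared groups ended 49 of the 147 calls. Such a fit leaves far fewer residual degrees of freedom and takes its spread from those groups alone, and the part of each was not tested. The counts fell from 6 to 1 for WT on Avicel against 0 h and from 10 to 5 for WT against CS. For WT higher on Avicel than on xylan the count fell from 2 to 0, and for WT between times from 4 to 1. That of ∆Tgxyr1 lower than WT fell from 11 to 6 and that of ∆Tgace1 against WT from 9 to 4. Smaller falls were from 16 to 11 for ∆Tgace1 against 0 h and from 9 to 6 for ∆Tgace2 against WT. Counts of 6 for WT on xylan and, against their own 0 h, 4 for ∆Tgxyr1 and 14 for ∆Tgace2 stayed the same. A pseudocount of 2 moved the count for WT between times to 2. The number of ∆Tgace1 and ∆Tgace2 responses that differed from WT rose from 9 to 19 with library weights and to 15 when both WT Avicel libraries that stood apart were left out, which was chosen after seeing the data.

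Without 1 library at a time the counts ran as follows. They were 6 for WT on xylan, 5 to 7 on Avicel, 0 to 1 under CS (0 without either library at 4 h), 7 to 11 for WT against CS, 0 to 2 for WT higher on Avicel than on xylan (0 without Avicel replicate 1 at 72 h), 3 to 4 for WT lower on Avicel and 3 to 5 for WT between times. For ∆Tgxyr1 they were 10 to 12 lower than WT, 2 to 4 against its own 0 h (2 without glucose replicate 2), 0 to 1 against WT under CS and 4 to 9 for its responses. For ∆Tgace1 and ∆Tgace2 they were 15 to 16 and 13 to 15 against 0 h, 7 to 11 and 8 to 10 against WT, and 6 to 14 for both mutants' responses (14 without WT Avicel replicate 1 at 72 h, 6 without WT glucose replicate 2). In all, 43 of the 147 differences lost their call without some library, and none changed direction. Read depth is unknown, so low values near 0 cannot be given a detection limit, and 2 or 3 libraries per group limit what could be called.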
